A study of Mus musculus with 5 samples.

Results

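The angiopoietin and Tie receptor axis was followed across liver and tumor endothelium through 6 genes: Angpt1 and Angpt2, which encode secreted ligands, Tek and Tie1, which encode receptor tyrosine kinases, Ptprb, which encodes a receptor phosphatase, and Angptl2, which encodes an angiopoietin-like protein. Members were taken by gene name on the array, which gave 10 probes of 56605 and 6 gene names of 37074. Gene expression was measured on 5 mouse arrays with 60-base probes and 1 colour, with 1 array for each condition. The LSEC array held liver sinusoidal endothelial cells from mouse liver. The HAK1B TEC, Hepa1-6 TEC and KYN2 TEC arrays held tumor endothelial cells from hepatomas of the lines HAK1B, Hepa1-6 and KYN2, and the fifth array held cultured Hepa 1-6 hepatoma cells. The labels give the strain C57BL/6 for LSEC and the 3 TECs and C57L for Hepa 1-6 cells. By the study's methods the mice were female, 6 weeks of age, and either C57BL/6 or athymic BALB/c nu/nu, with tumor cells inoculated into the liver, and TECs isolated from digested tumor by magnetic selection for CD31. The hepatoma lines HAK1B and KYN2 are human and Hepa1-6 is murine, and each TEC array is 1 preparation from the tumor of 1 line. The methods do not state which line grew in which host strain. The C57BL/6 label of the HAK1B and KYN2 TECs could thus not be checked, and host and line cannot be told apart. No array held cultured HAK1B or KYN2 cells, so signal from these human cells on the mouse probes could not be checked. For the arrays the methods give Huh-7 where the labels give HAK1B, and the labels were followed here. No treatment was given to these groups in the labels, and how many animals went into each array is not given in the sources used here.

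Angiopoietin 1 activates the receptor Tie2, the product of Tek, on endothelial cells, and this signal is known for keeping vessels quiescent and tight. Angiopoietin 2 is made largely by endothelial cells themselves and can block or weakly activate Tie2, depending on the setting. Tie1 is a companion receptor that modulates Tie2, and the phosphatase VE-PTP, the product of Ptprb, dephosphorylates Tie2.

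The first 30 bases of the brightest probe of each member with a measurable endothelial signal are shown because every level below was read through them, and the second Ptprb probe is added because it lies far from the first. The positions are those of the whole probes on mm9, as the array design gives them. Exon and untranslated region annotation of that build was not used here.
Angpt1, chr15:42256343-42256402, minus strand: aatgccaacatgtgtgtagcaatttgatac
Angpt2, chr8:18690323-18690382, minus strand: ccagctaactccagagtgaagaactctgtc
Tek, chr4:94540861-94540919, plus strand: ctctaatgtgactgtatatactgctcggag
Tie1, chr4:118144132-118144191, minus strand: gtgaacatgtcgctgtttgagaacttcacc
Ptprb, chr10:115820912-115820971, plus strand: caatctactcgagacattaagaattcacct
Ptprb, second probe, chr10:115756725-115756784, plus strand: tctgtactccctaaaggtgagctattataa

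In the files, Tek is paired with NM_013690, Tie1 with NM_011587, Angpt1 with NM_009640, Angpt2 with NM_007426, and the 2 Ptprb probes with NM_029928 and AK019450. The symbols of 6 of the 10 probes were found under the same RefSeq accession in a gene table, and the names on the array were used for the others. Each member probe had 1 spot on each array.

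Levels are log2 normalized signals, that is, the deposited background-subtracted intensity on a log2 scale after quantile normalization over the 5 arrays. A log2 ratio is a difference of these levels. Between 44.6% and 78.1% of probes were well above background on an array by the scanner's own flag, with the lowest share in Hepa 1-6 cells and the highest in Hepa1-6 TEC. A probe was called by the rule of size in the study's methods, which asks for a ratio from 1.5 upwards and a Z-score from 2 upwards, or a ratio from 0.66 downwards and a Z-score from -2 downwards. This Z-score sets a log2 ratio against all kept probes of the same pair of arrays, so that a call against LSEC needed a difference of 6.91-fold lower in HAK1B TEC, 9.84-fold lower in Hepa1-6 TEC and 6.77-fold lower in KYN2 TEC. A call is not a test. TECs shared 1 slide, LSEC was on another and Hepa 1-6 cells were on the third, so the effect of the slide and that of the group cannot be told apart. All comparisons with LSEC rest on the same LSEC array.

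Tek and Ptprb were lower than in LSEC in all 3 TECs, Tie1 was lower by less, and Angpt2 was at the LSEC level in HAK1B TEC and Hepa1-6 TEC and above it in KYN2 TEC. By the rule of size, 3 of the 6 genes were called lower in HAK1B TEC (Angpt1, Ptprb and Tek), where 4.51% of all genes were called lower. In Hepa1-6 TEC 2 were called lower (Ptprb and Tek; background 2.68%), as were the same 2 in KYN2 TEC (background 3.52%). Tek and Ptprb were the members called lower at 1 probe in all 3 TECs, and 1.20% of all genes were. No member was called higher than LSEC in a TEC, where 3.60%, 5.38% and 4.50% of all genes were called higher in HAK1B TEC, Hepa1-6 TEC and KYN2 TEC and 0.650% in all 3.

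**Figure D1:**
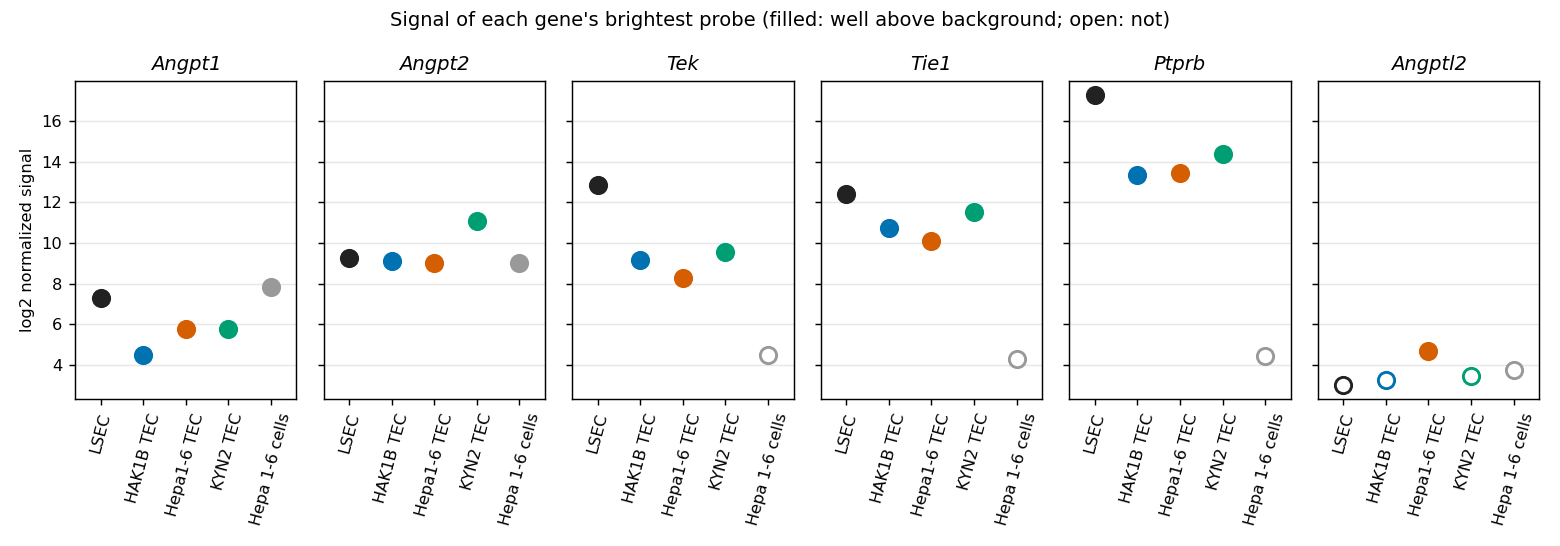
Log2 normalized signal (y axis) of the brightest probe of each of the 6 genes on each of the 5 arrays (x axis), with 1 point for each array, filled where the probe was well above background and open where it was not. The 3 TEC points of Tek lie between 8.26 and 9.53, below the LSEC point at 12.83, and the Tek, Tie1 and Ptprb points of Hepa 1-6 cells are open.

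Among the ligands, Angpt1 had a level of 7.28 in LSEC, 4.48 in HAK1B TEC, 5.78 in Hepa1-6 TEC, 5.75 in KYN2 TEC and 7.83 in Hepa 1-6 cells, and its probe was well above background on all 5 arrays. The 3 TECs were thus below both the LSEC array and the cultured cancer cells. The difference from LSEC was 6.95-fold in HAK1B TEC, 2.84-fold in Hepa1-6 TEC and 2.9-fold in KYN2 TEC. Only the first of these was called, with a Z-score of -2.01. That call sat at the edge of the rule and did not hold in the deposited table, where the difference was 6.26-fold, or after normexp background correction, where it was 2.7-fold. The level in HAK1B TEC was also close to 4.28, the dimmest signal that was still well above background there. The mean log2 ratio over the 3 TECs was -1.95 ± 0.74 (SD, n = 3). In Hepa1-6 TEC the level was 4.15-fold below that of Hepa 1-6 cells, which was not called.

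Angpt1 is known to be made by mural cells and carried by platelets, and markers of both were on the arrays. All 8 platelet and megakaryocyte markers were well above background in LSEC and in each TEC, and their median log2 ratio to LSEC was -2.7 in HAK1B TEC, -2.38 in Hepa1-6 TEC and -0.72 in KYN2 TEC. Of these, 4 were called lower in HAK1B TEC, 1 in Hepa1-6 TEC and 0 in KYN2 TEC. Of all genes at their brightest probe, 3.94%, 2.04% and 2.87% were. The list was not uniform, since Pf4, the gene of platelet factor 4, was at -0.11, 0.47 and 1.59 and not called, named here after its values were seen. Gp1ba, a subunit of the platelet receptor for von Willebrand factor, had log2 ratios of -3.55, -3.42 and -1.08 in HAK1B TEC, Hepa1-6 TEC and KYN2 TEC, and the first and the second were called. Ppbp, a platelet chemokine, had -3.39, -2.86 and -1.64, and Gp9 had -3.05, -2.89 and -0.71. For Gp6, the platelet collagen receptor, they were -2.87, -1.15 and -0.73, and Ppbp, Gp9 and Gp6 were called in HAK1B TEC alone. The 10 mural and stellate cell markers had medians of 0.49, 0.6 and 1.24, with 8 to 10 of them well above background on each endothelial array and 1, the potassium channel gene Kcnj8, called higher in KYN2 TEC at 2.78. In KYN2 TEC 3.64% of all genes were called higher at their brightest probe. The part of platelets or mural cells in the Angpt1 values was not tested.

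Angpt2 had a level of 9.25 in LSEC, 9.1 in HAK1B TEC, 9 in Hepa1-6 TEC, 11.1 in KYN2 TEC and 8.99 in Hepa 1-6 cells at its brightest probe, which was well above background on all 5 arrays. KYN2 TEC stood above the other 4 arrays, which lay within 0.26 of each other. Its level was 3.6-fold above LSEC, with a Z-score of 1.34 that is not a call, since 6.79-fold was needed. Against HAK1B TEC on the same slide it was 3.98-fold higher and was called with a Z-score of 2.09, where 4.12% of all genes were called higher. Against Hepa1-6 TEC, also on that slide, the difference was 4.29-fold and was not called. The ratio to LSEC was -0.15 in HAK1B TEC and -0.25 in Hepa1-6 TEC. The mean over the 3 TECs was 0.48 ± 1.18 (SD, n = 3), and it changed sign to -0.2 without the KYN2 TEC array. The other Angpt2 probe spans 308 bases on the genome (chr8:18699153-18699460) and was well above background in Hepa1-6 TEC alone, so no ratio of it is given.

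The receptor gene Tek had a level of 12.83 in LSEC, 9.17 in HAK1B TEC, 8.26 in Hepa1-6 TEC and 9.53 in KYN2 TEC, and its probe was not well above background in Hepa 1-6 cells. All 3 TECs were below LSEC and within 1.28 of each other. The difference from LSEC was 12.6-fold in HAK1B TEC, 23.9-fold in Hepa1-6 TEC and 9.84-fold in KYN2 TEC, and all 3 were called, with Z-scores of -2.62, -2.75 and -2.39. The mean log2 ratio was -3.85 ± 0.66 (SD, n = 3). Hepa 1-6 cells were at least 117-fold below LSEC, a bound set by the dimmest probe that the scanner still put above background on the cancer cell array. Against the same cells Hepa1-6 TEC was at least 4.9-fold higher, which was not called. In a preparation of mixed cells, fewer endothelial cells and less transcript in each endothelial cell cannot be told apart from these arrays alone. From flow cytometry the paper reports that most of the cells isolated from tumors were TECs. That measurement was not set against the array values here.

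Tie1, the companion receptor, had a level of 12.42 in LSEC, 10.75 in HAK1B TEC, 10.08 in Hepa1-6 TEC and 11.54 in KYN2 TEC, and it was likewise not well above background in Hepa 1-6 cells. The difference from LSEC was 3.19-fold, 5.08-fold and 1.84-fold lower in HAK1B TEC, Hepa1-6 TEC and KYN2 TEC, and none of the 3 was called. After normexp background correction the difference was 4.34-fold in Hepa1-6 TEC and was called. The mean log2 ratio was -1.63 ± 0.73 (SD, n = 3). Both receptors had their lowest TEC level in Hepa1-6 TEC and their highest in KYN2 TEC. Hepa 1-6 cells were at least 88.2-fold below LSEC and at least 17.4-fold below Hepa1-6 TEC, and both were called.

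Set against each other within an array, the receptors did not change alike. The log2 ratio of Tie1 to LSEC exceeded that of Tek by 1.99 in HAK1B TEC, 2.23 in Hepa1-6 TEC and 2.42 in KYN2 TEC, a mean of 2.21 ± 0.22 (SD, n = 3). The spread of this difference over the TECs was smaller than that of either receptor alone. The log2 ratio of Angpt2 exceeded that of Tek by 3.51, 4.32 and 5.15, and that of Angpt1 by 2.65, 1.25 and 3.38. These are differences of changes, and they share the LSEC array, so an error in it enters all 3 TECs alike.

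Ptprb was measured by a pair of probes. The brightest had a level of 17.25 in LSEC, 13.36 in HAK1B TEC, 13.43 in Hepa1-6 TEC and 14.36 in KYN2 TEC. The second had 11.02, 6.74, 6 and 6.68 in the same order, and neither was well above background in Hepa 1-6 cells. Every TEC was thus below LSEC at both probes, by 14.8-fold, 14.1-fold and 7.43-fold at the first and by 19.4-fold, 32.3-fold and 20.2-fold at the second, and all 6 differences were called. The mean log2 ratio at the brightest probe was -3.53 ± 0.56 (SD, n = 3). Ptprb and Tek had mean log2 ratios that differed by 0.31 ± 0.5 (SD, n = 3), with Tek higher in HAK1B TEC and Ptprb higher in the other 2 TECs. Hepa 1-6 cells were at least 2500-fold below LSEC and at least 177-fold below Hepa1-6 TEC at the brightest probe.

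Angptl2 was at the limit of the arrays. Of its 3 probes, the one at chr2:33099463-33099522 was well above background in Hepa1-6 TEC alone, the one at chr2:33102102-33102159 in KYN2 TEC alone, and the one at chr2:33085511-33085570 on no array. The probes thus disagree on where the gene was measured. In KYN2 TEC the second had a level of 5.06, at least 1.3-fold above LSEC, which was not called, and at least 1.72-fold above HAK1B TEC, which was called with a Z-score of 2.29. In Hepa1-6 TEC the first had a level of 4.69, next to the limit of 4.68 on the LSEC array.

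In Hepa 1-6 cells against LSEC, Tek, Tie1 and Ptprb were called lower, 3 of the 6 genes against 5.23% of all genes, and no member was called higher, against 2.99%. In Hepa1-6 TEC against the cells of the same tumor line in culture, Tie1 and Ptprb were called higher, against 5.52% of all genes. Angpt1 and Angpt2 were the members with a signal well above background in the cancer cells. Their ratios to LSEC were 0.55 and -0.26, and neither was called.

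The limma fit took the 3 TECs as 1 group against the lone LSEC array, which is assumed to vary like the TECs. No member probe of the 9 tested passed an adjusted p of 0.05, and 0 of 42113 probes did. At an unadjusted p under 0.05 there were 3 member probes, 1 of Tek and both of Ptprb, and 3581 of all probes (8.5%). With limma, Tek had a p of 0.00423 and an adjusted p of 0.443, the brightest Ptprb probe a p of 0.00422 and an adjusted p of 0.443, and the second Ptprb probe a p of 0.000959 and an adjusted p of 0.443. Adjusted p was 0.604 for Angpt1, 0.66 for Tie1 and 0.92 for the brightest Angpt2 probe by limma. By the ratio alone, at 0.66 or less, Tek, Tie1, Ptprb and Angpt1 were lower in all 3 TECs, as were 21.4% of all genes. The 3 ratios of a gene share the lone LSEC array and are not independent.

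The identity of the preparations was checked with 12 pan-endothelial markers. All 12 were well above background in LSEC and in each TEC, and 4 were in Hepa 1-6 cells. The markers were themselves lower in TECs. Their median log2 ratio to LSEC was -2.85 in HAK1B TEC, -2.58 in Hepa1-6 TEC and -1.63 in KYN2 TEC, against medians of 0.05, 0.05 and -0.02 over all kept probes. The rule of size called 7 of them lower in HAK1B TEC and 1 in each of the other 2, and at the brightest probe 3.94%, 2.04% and 2.87% of all genes were called lower and 3.11%, 4.55% and 3.64% higher. Pecam1, which encodes the CD31 used for selection, had log2 ratios of -1.17, -1.95 and -0.09, named here after its values were seen.

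**Figure D2:**
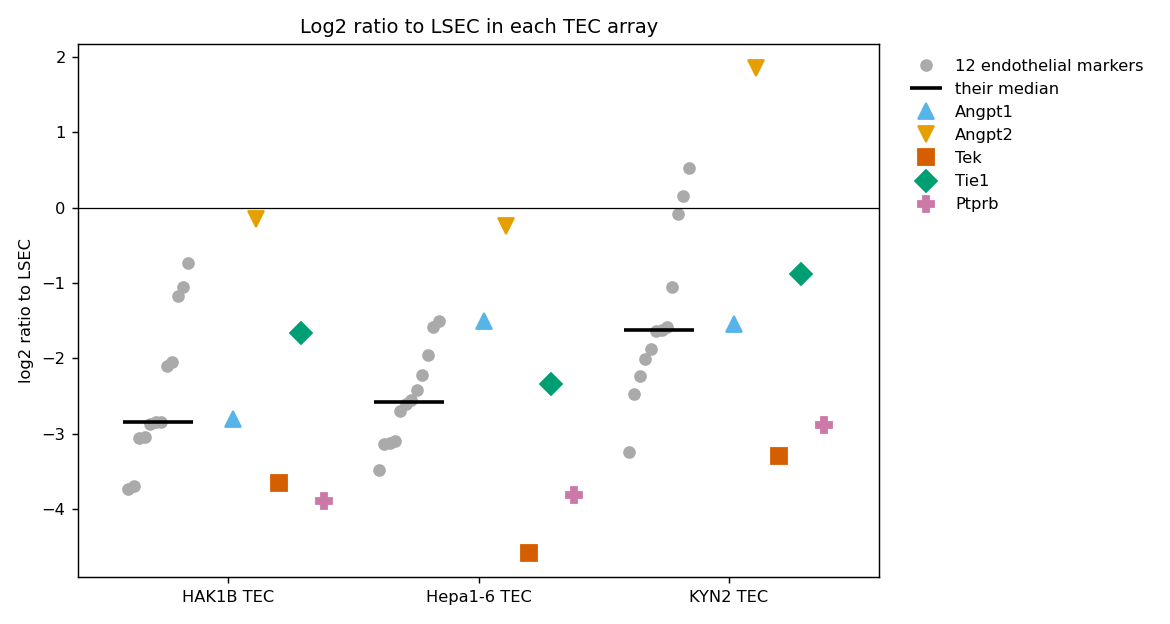
Log2 ratio to LSEC (y axis) on each TEC array (x axis), with 1 grey point for each of 12 endothelial markers, a bar at their median and coloured symbols for 5 of the genes. Tek lies below all 12 markers in Hepa1-6 TEC and KYN2 TEC and below 10 in HAK1B TEC, and Angpt2 lies above all 12 in each TEC.

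Relative to the endothelial marker median of the same array, the members spread to both sides. Tek lay below it by a log2 difference of -0.81 in HAK1B TEC, -1.99 in Hepa1-6 TEC and -1.67 in KYN2 TEC, and Ptprb by -1.04, -1.24 and -1.27. Tek was below 10, 12 and 12 of the 12 markers, and Ptprb below 12, 12 and 11. Tie1 lay above the median by 1.17, 0.24 and 0.75, although it was below LSEC in each. Angpt2 lay above it by 2.7, 2.33 and 3.47 and was above all 12 markers in each TEC. Angpt1 was at 0.05, 1.08 and 0.09. The sign of Tie1 and Angpt1 in all 3 TECs and that of Angpt2 in HAK1B TEC and Hepa1-6 TEC thus depended on whether all genes or endothelial markers served as the reference, while the sign of Tek and Ptprb did not.

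The 4 endothelial markers with the lowest mean ratio over the TECs were all receptor genes. Kdr, which encodes VEGF receptor 2, had log2 ratios of -3.7, -3.48 and -3.24 and was called lower in all 3 TECs. Flt1, which encodes VEGF receptor 1, had -3.73, -3.12 and -2.24. Eng, the co-receptor endoglin, had -3.06, -3.14 and -2.48, and Robo4, an endothelial guidance receptor, had -3.05, -3.1 and -1.64. Flt1, Eng and Robo4 were called in HAK1B TEC alone.

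The 10 LSEC markers were all well above background in LSEC and in each TEC, with median log2 ratios of -3.68, -3.05 and -2.66, of which 6, 4 and 5 were called lower. Over all genes at their brightest probe, 3.94%, 2.04% and 2.87% were called lower. Dnase1l3, a nuclease gene of sinusoidal endothelium, had -5.45, -4.7 and -4.85. Oit3 had -5.02, -4.41 and -3.16, Clec4g, a lectin gene, -4.37, -3.78 and -3.87, and Stab2, a scavenger receptor gene, -4.36, -3.29 and -2.93. Lyve1, a hyaluronan receptor gene also found on lymphatic vessels, did not follow them at -0.22, 0.97 and 1.88, and was named after its values were seen. The ratios of Tie1 lay above the median of the sinusoidal list and of the endothelial list in each TEC.

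Markers of other cells moved too. Of 8 neutrophil markers, 4 were well above background in LSEC, 8 in HAK1B TEC, 8 in Hepa1-6 TEC and 6 in KYN2 TEC, and the medians of their log2 ratios were 6, 4.35 and 1.38. The 8 fibroblast markers had medians of 0.11, 1.84 and 0.51, with 4, 7 and 7 genes above LSEC. Col1a1, a collagen gene that was not well above background in LSEC, was called higher in all 3 TECs, by at least 26.7-fold, 71.1-fold and 112-fold, while Pdgfra, a receptor gene of fibroblasts named after its values were seen, was at -1.09, -0.91 and 0.13. The 9 macrophage and monocyte markers on the array had medians of 0.54, -0.86 and -0.35, with 7, 3 and 3 above LSEC. Clec4f, a Kupffer cell lectin gene, had -5.56, -2.02 and -2.62, and Marco, a scavenger receptor gene, -3.34, -1.52 and -3.82. Cd14, a monocyte gene named after its values were seen, was at 2.22, 0.23 and 1.62. The 8 hepatocyte markers had medians of -2.7, 0.36 and -1.65, and Alb, the albumin gene, was at -6.46, 2.57 and -4.11, with a ratio of 0.97 in Hepa 1-6 cells. The neutrophil median was thus highest in HAK1B TEC and lowest in KYN2 TEC, and the part of other cells in the values of the 6 genes was not tested.

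**Figure D3:**
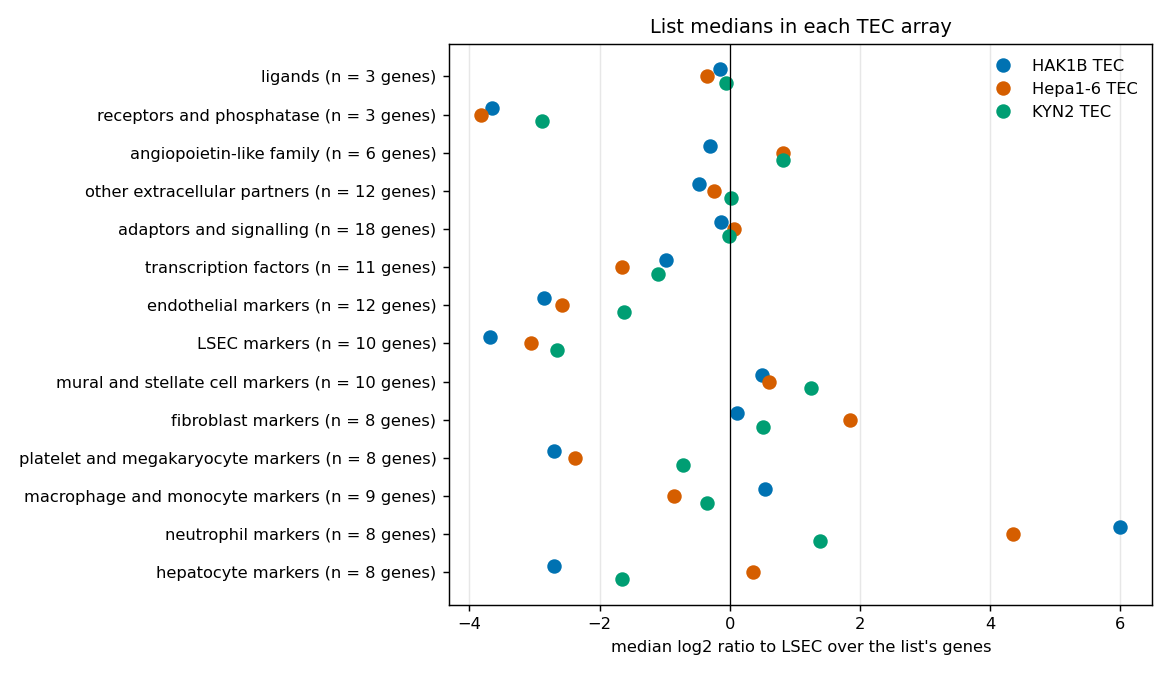
Median log2 ratio to LSEC (x axis) over the genes of each of 14 lists (y axis, with the number of genes on the array), with 1 point for each TEC array. The list of receptors and phosphatase (Tek, Tie1 and Ptprb) lies between -3.82 and -2.89, near the LSEC markers, while the adaptors and signalling list lies between -0.13 and 0.06.

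The genes around the axis did not share the shift of its receptors. Of 18 genes of adaptors and signalling, such as the Tie2 adaptor Dok2, the PI3K subunits and the Akt kinases, the median log2 ratio was -0.13 in HAK1B TEC, 0.06 in Hepa1-6 TEC and -0.02 in KYN2 TEC. Of these, 2, 1 and 1 were called lower and 0, 2 and 1 higher. At the brightest probe 3.94%, 2.04% and 2.87% of all genes were called lower and 3.11%, 4.55% and 3.64% higher. Counts this small among 18 genes say little about the list. Pik3ca, a catalytic subunit of PI3K, was called lower in all 3 TECs at -3.12, -3.32 and -4.1, and its ratio in Hepa 1-6 cells was -3.44. Pik3cb, another catalytic subunit named after its values were seen, was at 2.37, 0.9 and 2.37 and was not called. Grb7 and Grb14 are adaptors of receptor tyrosine kinases. Grb7 was called higher in Hepa1-6 TEC at 5.86 and in KYN2 TEC at 3.51, and it was at 6.19 in Hepa 1-6 cells. In HAK1B TEC it was not well above background and at least 4.84-fold below LSEC. Grb14 was called higher in Hepa1-6 TEC at 3.67, with 2.66 in Hepa 1-6 cells. It was not well above background in HAK1B TEC, at least 5.04-fold below LSEC and called lower, or in KYN2 TEC, at least 3.9-fold below LSEC. In Hepa1-6 TEC both were thus on the side of the cancer cells of that line.

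Of 12 other extracellular partners, which include integrins, VE-cadherin, Vegfa and Kdr, the medians were -0.48, -0.24 and 0.02. In each TEC 1 gene was called in each direction. The shares of all genes at their brightest probe were 3.94%, 2.04% and 2.87% lower and 3.11%, 4.55% and 3.64% higher. A single call among 12 genes says little about the list. Vegfa, which encodes the growth factor that acts together with angiopoietin 2 in vessel growth, was at 5.83, 3.05 and 4.85 and was called higher in HAK1B TEC and KYN2 TEC. Kdr was the gene called lower. Lect2, which encodes a secreted liver protein described as a binder of Tie1, was at -1.3 in HAK1B TEC and 5.64 in Hepa1-6 TEC, where it was called higher, and at 6.53 in Hepa 1-6 cells. In KYN2 TEC it was not well above background and at least 3.02-fold below LSEC. The higher call of Hepa1-6 TEC in this list was therefore a gene that the cultured cancer cells of the same line also held.

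In the angiopoietin-like family, 6 genes had medians of -0.31, 0.81 and 0.82. Angptl4, an inhibitor of lipoprotein lipase, was at 1.22, 1.75 and 3.34 and was the member called higher, in KYN2 TEC. On that array 3.64% of all genes were called higher at their brightest probe. KYN2 TEC was also the array with the highest Angpt2 level. The ligand list of Angpt1, Angpt2 and Angpt4 had medians of -0.15, -0.35 and -0.06, and Angpt4 was not well above background on any of the 5 arrays.

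Transcription factors of endothelial cells had a median shift below 0. Over 11 genes it was -0.98, -1.65 and -1.11, with 8, 10 and 9 of them below LSEC and 2, 0 and 0 called lower. Of all genes at their brightest probe, 50.1%, 47.3% and 52.0% were below LSEC and 3.94%, 2.04% and 2.87% were called lower. Epas1, which encodes the hypoxia-inducible factor HIF-2 alpha, was at -3.04, -3.29 and -2.29, and Erg, an ETS factor of endothelial cells, at -2.87, -2.7 and -1.62. Both were called in HAK1B TEC alone. The other ETS genes on the list were not called in a TEC.

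The start regions of both receptor genes are shown because ETS factors are known to bind endothelial promoters. The sequences are the 250 bases before the start from RefSeq on GRCm38.p6, in the direction of the gene, with capitals for a match to AGGAAG on either strand.
Tek, chr4:94739039-94739288, plus strand: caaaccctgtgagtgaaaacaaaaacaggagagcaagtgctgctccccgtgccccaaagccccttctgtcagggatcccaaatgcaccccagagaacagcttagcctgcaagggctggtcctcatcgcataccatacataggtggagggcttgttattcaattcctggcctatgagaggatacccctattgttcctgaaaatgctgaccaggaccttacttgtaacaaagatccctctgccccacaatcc
Tie1, chr4:118489850-118490099, minus strand: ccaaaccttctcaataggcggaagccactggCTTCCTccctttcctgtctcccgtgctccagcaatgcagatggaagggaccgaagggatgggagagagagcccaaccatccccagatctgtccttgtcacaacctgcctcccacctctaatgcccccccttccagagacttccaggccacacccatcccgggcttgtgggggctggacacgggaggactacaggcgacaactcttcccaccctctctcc

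The motifs searched on both strands were AGGAAG of the ETS family, GTAAACA of forkhead factors, AGATAA of GATA factors and ACGTG, the core of the hypoxia response. The Tie1 window held 1 AGGAAG match, on the strand opposite to the gene, 219 to 214 bases before the start, and no match to the other 3. The Tek window held none of the 4. Over 32851 promoters of the same length AGGAAG was found in 29.5%, GTAAACA in 3.2%, AGATAA in 10% and ACGTG in 16.6%. A match of these letters, or its absence, is a description of the window only, and a part of it in the receptor levels was not tested. The Angptl2 window held 1 AGGAAG match, 110 to 105 bases before the start.

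The genes nearest to Tek and to Angpt2 were taken by the root mean square difference of the 4 log2 ratios to LSEC, over 16971 genes well above background on LSEC and the 3 TECs. For Tek these were Dnaja4, Csprs, Gm15433, Daf2 and Tspan7, at 0.27, 0.31, 0.33, 0.47 and 0.55. The Tek ratio in Hepa 1-6 cells enters as measured, although it is below background there. For Angpt2 they were Rdh12, Gm14321, Tmem253, Gm31134 and 4732440D04Rik, at 0.13, 0.2, 0.2, 0.21 and 0.22, with log2 ratios in KYN2 TEC from 1.52 to 2.17. Csprs and Gm15433 had close values on all 4 ratios.

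Tek, Tie1, Angpt1 and Angpt2 kept their order of TECs when the arrays were processed in other ways, while HAK1B TEC and Hepa1-6 TEC changed places for Ptprb in 2 of them. Over 5 ways of processing, the fold difference of Tek from LSEC ran from 11.2 to 12.8 in HAK1B TEC, from 19 to 24.1 in Hepa1-6 TEC and from 8.63 to 9.95 in KYN2 TEC. Angpt2 in KYN2 TEC ran from 3.44-fold to 3.63-fold above LSEC. Angpt1 moved most among these 5 genes, from 2.7-fold to 8.25-fold in HAK1B TEC. Angptl2, which is not among them, moved more, from 1.3-fold to 8.38-fold above LSEC in Hepa1-6 TEC. Its brightest probe was not well above background in LSEC.

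**Figure D4:**
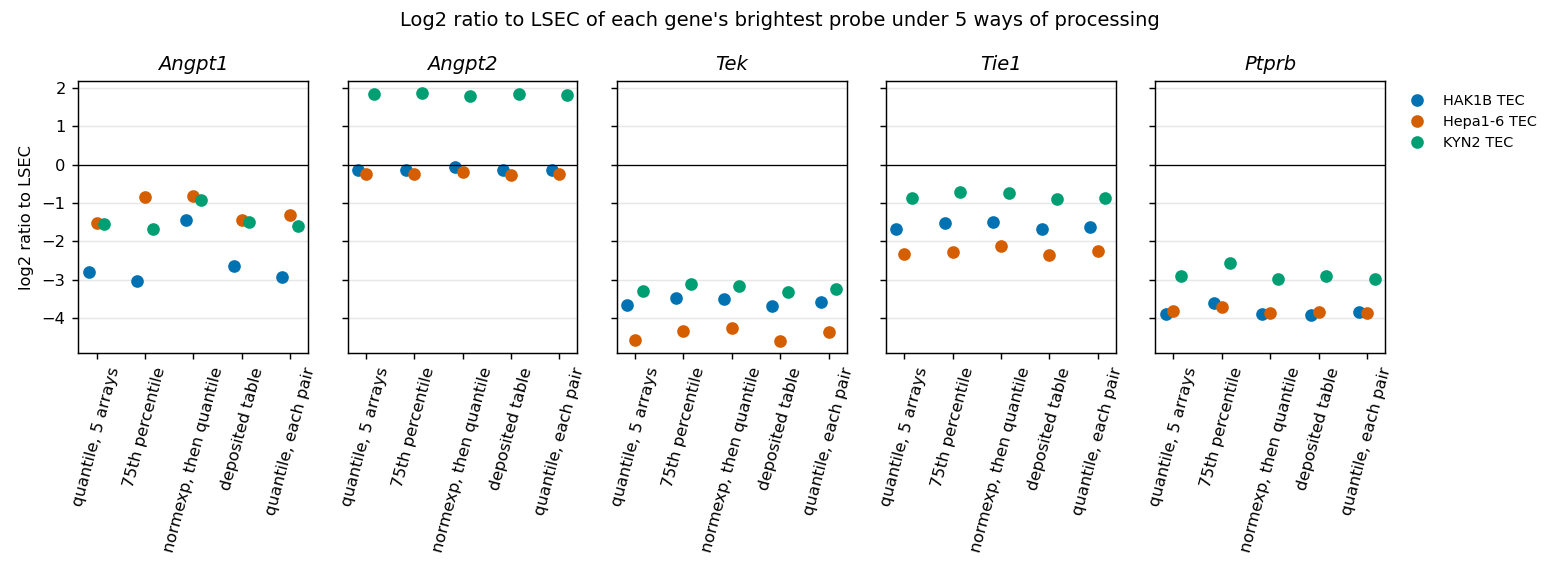
Log2 ratio to LSEC (y axis) of the brightest probe of 5 genes under 5 ways of processing the arrays (x axis), with 1 point for each TEC. Tek stays between -4.59 and -3.11 and Angpt2 in KYN2 TEC between 1.78 and 1.86, while Angpt1 in HAK1B TEC moves from -3.04 to -1.43.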

How the data were processed

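RNA was amplified, labelled with Cy3 and hybridized by the authors, who used Agilent Feature Extraction for the scans (9.5.1.1 in the submitters' processing notes, 10.7.1.1 in the file headers). The deposited scanner values are the linear intensity of every spot after background subtraction, with no normalization across arrays. A further deposited table holds normalized intensities, with a median of 43 in each column and the probes of an array ranked as in its scanner values. Which arrays were normalized together to make it is unknown.

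Control spots were dropped and repeated spots averaged. The log2 intensity, computed from the deposited values, was quantile normalized over the 5 arrays. A comparison used probes present on 1 or both of its arrays, without lincRNA probes, and calls followed the rule of size. In the gene lists each gene was read at its brightest probe by mean signal. The TEC fit used limma 3.58.1 (R 4.3.3) with 2 residual degrees of freedom and Benjamini-Hochberg adjustment. Python 3.11.15 with numpy 2.4.6, pandas 2.3.3 and matplotlib 3.10.9 served for the rest. The rule and the fit were run on simulated data as a check of the code. That simulation gave LSEC and the TECs equal noise and no slide effect, so it does not test the design used here. The number of arrays limits the precision.

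The 6 genes and the 14 gene lists were chosen with earlier results of these data known. Genes named were drawn from the 6 members, the 5 nearest to Tek and to Angpt2, and a choice from each list. That choice took up to 4 genes called in at least 1 TEC, by the largest absolute mean log2 ratio over the TECs. Not every chosen gene is printed, and some others are marked as named after their values were seen. Alternatives tried were normexp (offset 50), quantile normalization by pair, division by the 75th percentile, the values of the deposited table, changed filters, the mean of all probes of a gene and the omission of each TEC. Of these, the omission of each TEC in the count of genes called in all TECs, and the ratio relative to endothelial markers, were chosen after seeing the data.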

Additional observations from a re-analysis of the deposited data

Results flagged for a closer look

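Angpt2 was above LSEC in KYN2 TEC and slightly below it in HAK1B TEC and Hepa1-6 TEC, so its direction was not shared by the tumor lines. The log2 ratio to LSEC in KYN2 TEC exceeded that in HAK1B TEC by 1.99 and that in Hepa1-6 TEC by 2.1. The ratios below LSEC, -0.15 and -0.25, were small. With 1 array for each line the difference was not tested. Neither was a part of human cancer cells in the KYN2 TEC value, since no array held KYN2 cells.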

How the results depend on the processing

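No paired analysis was possible because there was a single array for every condition. A slide block was not run, since LSEC and the TECs shared no slide. With quantile normalization by pair, the 75th percentile, normexp, the deposited table or no flag filter, Tek and Ptprb were called lower in every TEC. Leaving out each TEC in turn reused the calls of the other TECs, so neither gene could drop out. No further member joined them. Of 228 comparisons of a result with an alternative, 211 stayed within the spread or count limit set for it. Part of these were fixed in advance, so the total is no measure of stability. Leaving out a TEC cannot move the mean ratio of a member beyond its SD. A gene with a single probe keeps its value under the mean of all probes. When probes had to be present on both arrays, 0 members were called in Hepa 1-6 cells, where Tek, Tie1 and Ptprb are below background. Without the Z-score, Angpt1 and Tie1 joined Tek and Ptprb, with 4 genes lower in Hepa1-6 TEC, 4 in KYN2 TEC and 4 in all TECs, and 2 genes higher (Angpt2 and Angptl2) in each of Hepa1-6 TEC and KYN2 TEC, where in Hepa1-6 TEC the Angpt2 call comes from the second probe, not well above background in LSEC. By the ratio alone 38.1%, 34.5% and 21.4% of all genes were lower and 42.9% and 33.6% higher in the same comparisons. With normexp, Tie1 was also called lower in Hepa1-6 TEC and Angpt1 was not called in HAK1B TEC. The mean TEC log2 ratio of Angpt1 was -1.06 with normexp. Relative to the endothelial marker median, the mean TEC log2 ratio reversed for Angpt1 (0.41) and Tie1 (0.72), and it was 2.83 for Angpt2, -1.49 for Tek, -1.18 for Ptprb and 3.13 for Angptl2, by construction since that median is below 0. The median of the ligand list was 0.18 with normexp. That of other extracellular partners was 0.43 with the mean of all probes and ranged from -0.22 to 0.25 with a TEC left out, and that of adaptors and signalling from -0.02 to 0.3. Scaling to the 75th percentile moved the median over all kept probes in Hepa1-6 TEC from 0.05 to 0.43. In limma 0 member probes passed the adjusted threshold under each alternative, the smallest adjusted p of a member ran from 0.121 with normexp to 0.982 without KYN2 TEC, and all probes at an unadjusted p under 0.05 ran from 2013 to 6235. Signal over background limited Angptl2, the second Angpt2 probe and Angpt1 in HAK1B TEC.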

Other observations

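Genes downstream of Tie2 that the rule of size did not call in a TEC are given here as values and were named after these were seen. Akt1, a kinase gene, had log2 ratios to LSEC of -0.01 in HAK1B TEC, -0.46 in Hepa1-6 TEC and -0.34 in KYN2 TEC. Nos3, which encodes endothelial nitric oxide synthase, had -1.1, -1.71 and -0.66, and Foxo1, a forkhead factor that Akt inhibits, had -0.92, -1.51 and -0.49. In Hepa 1-6 cells Nos3 was called lower than LSEC, at -6.1. Angptl7, of the angiopoietin-like family, had -1.99, -1.67 and -1.73.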
